A study of Aethionema arabicum with 12 samples.

Results

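RING and U-box proteins are ubiquitin ligases, and the transcripts of this gene family were followed in seeds of Aethionema arabicum through light-induced secondary dormancy. The set holds every gene model of the deposited wild-type table that is described there as RING/U-box and has a sum of at least 50 raw counts over the 12 libraries. That rule took 190 of the 272 models with this description, out of 24932 gene models in the table. Of the 82 models left out, 35 had no count at all, and the rule's omission of 1 locus by its Arabidopsis code removed 0 models. The members were thus chosen by their summed counts, so their levels are a description: the totals just inside the limit were 52, 52, 54, 56 and 59 counts, and those just outside were 44, 39, 37, 37 and 31 counts. Each model is paired in the file with an Arabidopsis thaliana locus, and the 190 models fall on 171 loci. Ligases that the file describes in other words, or that had fewer counts, are outside the set. Of the Arabidopsis loci listed here for ABA responses and germination, 17 are paired in the file and 6 are members. For defence and stress these numbers are 16 and 4. Levels and calls given for the family are those of the members only. Names and roles below are those of the Arabidopsis partner, and the function of each gene in Aethionema was not measured here.

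All seeds were of the Cyprus accession, a wild-type line whose germination is inhibited by light, and all were imbibed on wet filter paper at 14 °C. White light, set at 100 µmol m-2 s-1, was given for 23 h (called 1 d here), for 7 d or for 14 d, and the fourth condition was 7 d of this light followed by 7 d of darkness. Each condition had 3 libraries of poly(A) RNA from intact seeds that had not germinated. Seeds that had already germinated were thus not sampled, and no condition was kept in darkness from the start. Whether the numbered replicates stem from separate batches of seed is not said in the labels, and the p-values then reflect only how far these libraries differ.

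Ubiquitin is activated by an E1 enzyme, passed to an E2 conjugating enzyme and attached to a target protein by an E3 ligase, which sets the choice of target. RING and U-box proteins are among the largest groups of E3 ligases in plants. The RING finger is held by zinc and the U-box folds alike without zinc, and both bring the E2 to the substrate. In Arabidopsis seeds, members of this family act on the signalling of abscisic acid (ABA), the hormone that keeps seeds dormant and that opposes gibberellin, which promotes germination.

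Library totals were 3387609 to 3996148 counts after 1 d, 1596668 to 2689668 after 7 d, 916523 to 2448092 after 14 d and 1299536 to 1900418 after the dark week. A single count was therefore worth between 0.228 and 1.18 CPM, the measure of level used here (read counts relative to the library size after TMM scaling), and low values are least precise in replicate 1 of 14 d light. On the first 2 principal components over all genes, replicate 3 of 7 d light lay towards replicates 1 and 3 of 14 d light, whereas replicate 2 of 14 d light lay near replicates 1 and 2 of 7 d light. Results that rest on these libraries are given with and without them. Transcripts of seed storage proteins, oleosins and EM proteins, 8 models of 6 Arabidopsis loci, marked the tissue as seed in every library: their summed level was 1156 to 1352 CPM after 1 d, 2140 to 3391 after 7 d, 2359 to 5552 after 14 d and 3155 to 4308 after the dark week. All 8 were called higher after 7 d than after 1 d of light, as defined below, and their part in the results on the ligases was not tested. In whole seeds, fewer cells of a type and less RNA per cell cannot be told apart.

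The family took a larger part of the counts after 7 d than after 1 d of light. Its share of all counts was 0.898% ± 0.0051 (SD, n = 3) after 1 d, 1.13% ± 0.0084 after 7 d, 1.11% ± 0.014 after 14 d and 1.19% ± 0.012 after the dark week. The summed level of the 190 members was 8235 ± 43.2 CPM after 1 d and 11310 ± 219 after 7 d, and it was 11480 ± 353 after 14 d of light against 12550 ± 102 after the dark week. Counts were spread over many members: the 10 models with the most counts held 26.8% of the family's counts. The model with the most, at 4.96%, was that of DOA10/CER9, an endoplasmic reticulum (ER) membrane ligase needed for normal cuticle lipids, whose gene model is long at 9043 bases.

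Per kilobase of gene length, the mean level over 12 libraries ran from 0.487 to 193.3 CPM per kb with a median of 19.5. The 10 highest members were led by the model of AT5G47610 (Aa31LG9G5410) at 193.3 CPM per kb, a model of XERICO (Aa31sc466G20) at 172.4 and the model of AT2G44410 (Aa31LG1G25960) at 153.5. XERICO is a small membrane-anchored RING-H2 protein that the file's annotation places in ABA metabolism, induced by DELLA proteins and repressed by gibberellin. Next came AT3G26730 (Aa31LG2G5830) at 128.3 and AT3G10815 (Aa31LG3G3740) at 100.9 CPM per kb. The other five were AT4G27880 (Aa31LG3G9520, of the SINA type, RING proteins with a TRAF-like domain) at 93.1, AT4G35840 (Aa31LG8G15010) at 91.0, AT1G71980 (Aa31LG4G8630, with a protease-associated domain) at 90.4, AT1G74370 (Aa31LG4G4620) at 86.3 and AT3G29270 (Aa31LG2G4000) at 85.0 CPM per kb. Of these 10, AT2G44410 had the largest change between 1 d and 7 d of light: its level was 64.7, 68.6 and 64.8 CPM in the 3 libraries of 1 d and 169, 181 and 226 in those of 7 d. Every 7 d library was above every 1 d library, and the log2 fold change was 1.53 ± 0.18 (SE, adjusted p = 9.97e-06).

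The first week of light compares seeds imbibed in light for 1 d with seeds imbibed in light for 7 d. Time since imbibition differs as well, and no seeds were kept dark throughout, so light and time cannot be told apart here. The second week of light and the dark week against 7 d of light share the difference in time. Of 177 members with enough counts to test, 88 were higher and 35 were lower after 7 d than after 1 d by edgeR's quasi-likelihood test at an adjusted p under 0.05. Among all 15301 genes tested, 30.7% were called higher and 29.7% lower, 60.4% in all, against 49.7% and 19.8% of the tested members. The median log2 fold change was 0.37 over the tested members and 0.02 over all genes. With scaling by library totals alone, which moved the median of all genes to -0.11, that of the members was 0.24 and the calls were 75 higher and 39 lower. Changes of at least 2-fold were called higher in 32 members and lower in 14, where 10.8% and 14.4% of all genes passed the same limits. Of these 123 calls, 93 were kept under each of 19 other settings, which are another test, scalings, filters and fits and each of the 12 libraries left out in turn.

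**Figure D1:**
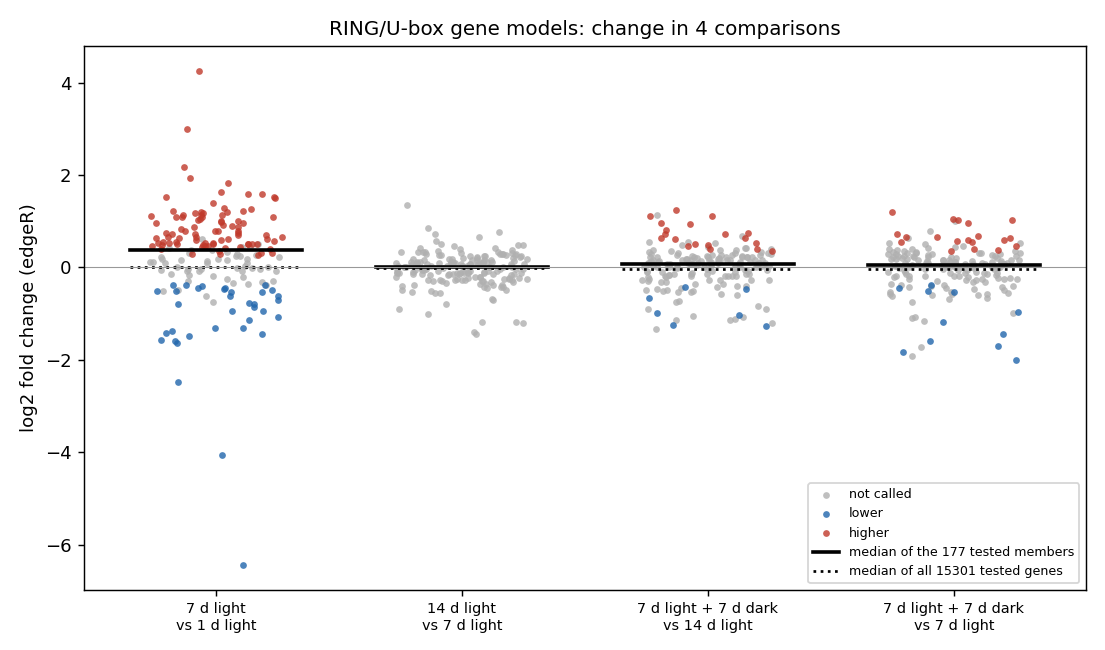
Log2 fold change (edgeR, y axis) of the 177 tested RING/U-box models in 4 comparisons (x axis), 1 point per model, red where called higher, blue where called lower and grey where not called; the solid bar is the median of the members and the dotted bar that of all 15301 tested genes. In the first week of light the member median is 0.37 and that of all genes 0.02, while no point is coloured for 14 d against 7 d of light; the lowest point of the first week is a model with 0 counts after 7 d, whose fitted value is no measured size.

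The balance between higher and lower calls differed with transcript level, which was seen in the data and is given as a description. All tested genes were split by mean level over the 12 libraries into 4 bins of equal size. That mean includes the libraries after 1 d, so a gene that rose tends towards a higher bin and one that fell towards a lower bin. Part of the trend over bins is thus built in, and members are set beside all genes of the same bin. Members in the lowest bin, 1.16 to 16.2 CPM, were called higher in 22.0% and lower in 39.0% of 41 cases, against 18.2% and 45.9% of all genes in that bin. In the next bin, up to 42.1 CPM, 33.3% of 48 members were higher and 25% lower, against 25.2% and 35.8% of all genes. Of 56 members between 42.1 and 87.7 CPM, 64.3% were higher and 12.5% lower, against 31.3% and 26.0%. In the top bin, 84.4% of 32 members were higher and 0% lower, against 48.1% and 11.1%. The models called higher had a median length of 2141.5 bases and those called lower 1467, where the medians over all genes were 2460 and 2588.5 bases.

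**Figure D2:**
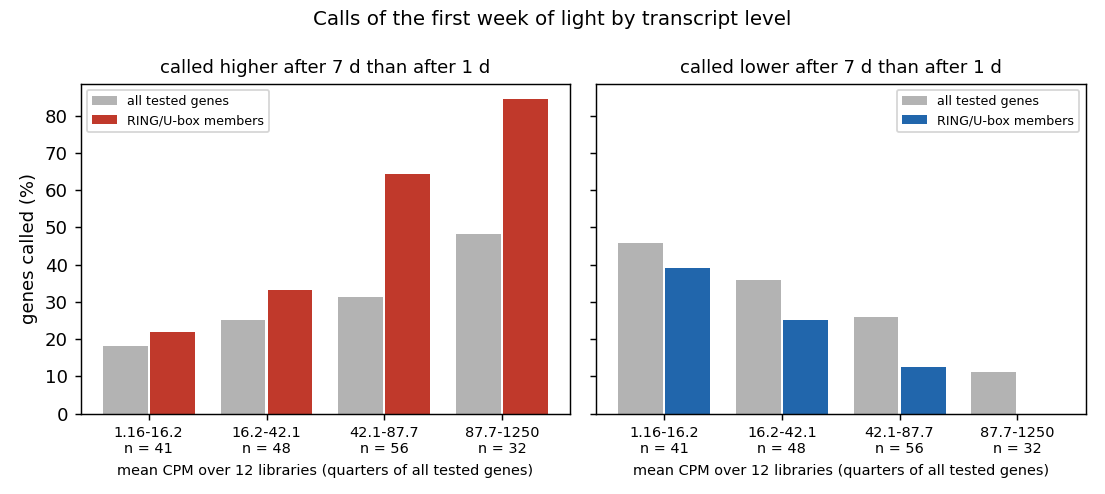
Percentage of genes called higher (left) or lower (right) after 7 d than after 1 d of light (y axis), in 4 bins of equal gene number by mean CPM over 12 libraries (x axis), for all tested genes (grey) and for the RING/U-box members (coloured; n is their number in each bin). In the top bin 84.4% of the members and 48.1% of all genes were called higher. The mean includes the libraries after 1 d, so part of the trend over bins is built in.

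The model with the largest increase among members with a mean of at least 2 CPM was that of AT1G72200 (Aa31LG4G8360), a RING-H2 protein of the ATL type, in which a membrane anchor precedes the RING. Its level was 0, 0.54 and 0.46 CPM in the 3 libraries of 1 d and 5.88, 7.03 and 10.1 in those of 7 d, with 7.08, 4.9 and 3.74 after 14 d and 8.76, 10.6 and 5.53 after the dark week. The 1 d libraries were all below 1 CPM and did not overlap with any later one, and the log2 fold change of the first week was 4.26 ± 0.51 (SE, adjusted p = 1.43e-05). AT1G13195 (Aa31LG1G1600), a zinc-binding RING protein, went from 8.52, 8.71 and 6.61 CPM to 57.3, 60.2 and 76.1. It then stayed between 60.5 and 79.5 CPM in the 6 libraries of 14 d light and of the dark week, and its log2 fold change was 3.01 ± 0.16 (SE, adjusted p = 5.25e-08) in the first week. Smaller increases were found for AT3G02340 (Aa31LG5G12880) at 1.84 ± 0.17 (SE, adjusted p = 1.7e-06), for AT1G74410 (Aa31LG4G4660) at 1.59 ± 0.22 (SE, adjusted p = 4.55e-05) and for AT3G11110 (Aa31LG3G4280) at 1.59 ± 0.23 (SE, adjusted p = 6.33e-05). The helicase with a RING domain paired with AT5G43530 (Aa31LG5G3650) was at 8.77, 8.71 and 9.35 CPM after 1 d and 27.9, 33 and 22.2 after 7 d, a log2 fold change of 1.64 ± 0.28 (SE, adjusted p = 0.000232).

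Lower after 7 d were several members of modest level. AT1G23980 (Aa31LG7G7780), an ATL-type RING-H2 protein, was at 12.5, 13.9 and 15.3 CPM after 1 d and at 2.94, 1.76 and 2.54 after 7 d. No 7 d library came near a 1 d library, and the log2 fold change was -2.49 ± 0.34 (SE, adjusted p = 4.23e-05). AT4G30370 (Aa31LG2G20160), annotated with the response to chitin, fell from 56.1, 61 and 53.4 CPM to 18, 17.1 and 20.3, a log2 fold change of -1.63 ± 0.19 (SE, adjusted p = 1.29e-05). The RING-CH protein AT5G45290 (Aa31LG9G7750), AT3G60080 (Aa31LG10G14240), AT1G73760 (Aa31LG4G4090) and a model of ATL3 (AT1G72310, Aa31LG8G1580) had log2 fold changes of -1.59, -1.57, -1.49 and -1.42, with adjusted p of 0.000167, 0.000195, 0.00316 and 0.00771. Below the level set for naming, and singled out after their values were seen, were 2 models with few counts after 1 d. ATL4H (AT4G17905, Aa31LG6G650) had 56 counts over the 1 d libraries and 0 counts over the 7 d libraries, and also 0 counts in both later conditions. The 7 d level was at least 10.2-fold lower against a floor of 3 counts over the group. AT5G41400 (Aa31LG9G550) had 71 counts after 1 d against 2 after 7 d, a ratio of 19.4 after scaling for depth with a 95% counting interval of 5.17 to 163. These limits cover counting error only. Both models reached 50 counts only through the 1 d libraries, so that a lower level after 7 d was built into their selection and is a description. AT1G23980, with 168 of its 212 counts after 1 d, also reached 50 counts only through these libraries. So did AT1G73760, with 119 counts after 1 d and 23 after 7 d. A lower level after 7 d was thus partly built into the selection of these models too, and their values are a description.

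Among the 6 members on the list for ABA responses and germination in Arabidopsis, 3 were higher after 7 d of light and 1 was lower. Over all genes 30.7% were higher and 29.7% lower, and over the tested members 49.7% and 19.8%. XERICO is not on that list, and both of its models, described further on, were also called higher. AIRP1 and AIRP2 are RING ligases that promote ABA-dependent drought responses. AIRP1 (Aa31LG6G6640) was at 13.5, 13.6 and 14.6 CPM after 1 d, 27.6, 34.3 and 40.6 after 7 d, 40.1, 34.3 and 49.3 after 14 d and 38.4, 34.9 and 32.1 after the dark week. The 1 d libraries stood below all others, and the first week gave a log2 fold change of 1.26 ± 0.17 (SE, adjusted p = 3.91e-05). AIRP2 (Aa31LG1G23150) rose from 34.3, 40.5 and 35.4 CPM to 62.1, 58 and 72.3, with 50.8, 43.3 and 51.6 after 14 d and 65.4, 65.8 and 58.1 after the dark week. Its log2 fold change was 0.80 ± 0.12 (SE, adjusted p = 8.75e-05) in the first week. In the second week of light it was -0.41 ± 0.13 (SE, adjusted p = 0.254), which did not pass the test although the 14 d libraries were all below the 7 d libraries.

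AIP2, the ligase that targets the dormancy regulator ABI3 for degradation in Arabidopsis, moved the other way. Its model (Aa31LG1G13850) was at 43.6, 41.9 and 38.5 CPM after 1 d and at 15.8, 17.1 and 13.9 after 7 d, and then at 14.2, 10.6 and 16.4 after 14 d and 13.5, 16.2 and 19.4 after the dark week. The 1 d libraries were separate from the 9 others, among which the groups overlapped. The log2 fold change of the first week was -1.39 ± 0.15 (SE, adjusted p = 7.36e-06), and that of the dark week against 7 d of light was 0.07 ± 0.20 (SE, adjusted p = 0.861).

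ATL43, whose loss makes Arabidopsis seeds less sensitive to ABA, was at 12.4 ± 1.69 CPM after 1 d and 17.8 ± 1.08 after 7 d (SD, n = 3). The log2 fold change of its model (Aa31LG11G6820) was 0.52 ± 0.20 (SE, adjusted p = 0.0375), but leaving out any 1 library of 1 d or 7 d light, or replicate 1 of 14 d light, ended the call, with adjusted p up to 0.177. SDIR1 (Aa31LG10G10560), a ligase that promotes ABA signalling in germination, was at 81.7, 82.7 and 80.3 CPM after 1 d and 96.3, 93.2 and 119 after 7 d, and its log2 fold change of 0.33 ± 0.15 (SE, adjusted p = 0.0735) did not pass the test. LOG2 (Aa31LG3G2230), a plasma membrane ligase with roles in amino acid export and the ABA response, was at 87.4, 97.6 and 88.9 CPM after 14 d of light and 111, 133 and 122 after the dark week. These groups did not overlap, and the log2 fold change was 0.41 ± 0.12 (SE, adjusted p = 0.0382). That call ended in 12 of 19 other settings. Among these were the fits without any 1 library of 1 d, without replicate 1 or 3 of 14 d light and without replicate 2 or 3 of the dark week, with adjusted p up to 0.122.

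**Figure D3:**
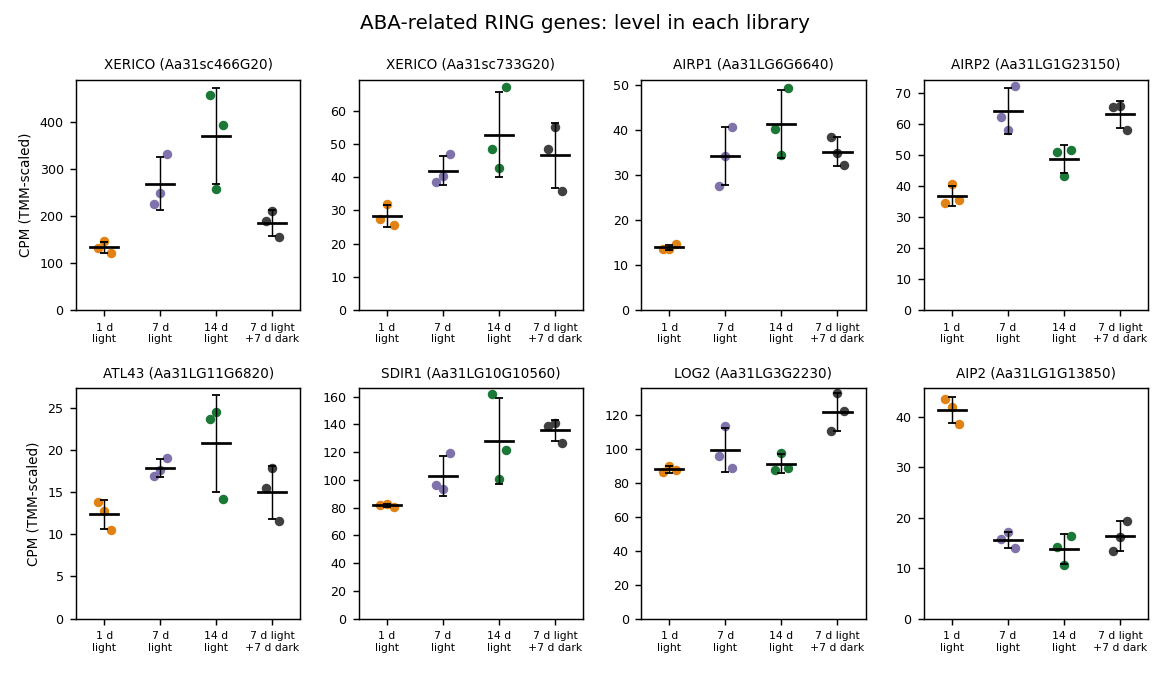
Level in CPM (y axis, from 0) of 8 models related to ABA in each library of 4 conditions (x axis); points are libraries, the bar is the mean of 3 and the whiskers are 1 SD. The 1 d libraries lie lowest for AIRP1 and AIRP2 and highest for AIP2, and XERICO on Aa31sc466G20 averages 370.0 CPM after 14 d of light and 185 after the dark week.

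XERICO differed between darkness and light in the second week. The model Aa31sc466G20 was at 132, 146 and 122 CPM after 1 d, 225, 249 and 332 after 7 d, 458, 258 and 394 after 14 d and 189, 210.3 and 155 after the dark week. The dark libraries were below all 14 d libraries, and also below all 7 d libraries. Its log2 fold change was 1.01 ± 0.20 (SE, adjusted p = 0.000833) in the first week of light and -0.99 ± 0.21 (SE, adjusted p = 0.00702) for the dark week against 14 d of light, and the second call was kept under all 19 other settings. Against 7 d of light the dark week gave -0.54 ± 0.20 (SE, adjusted p = 0.0863), which did not pass. The change in the second week of light was 0.46 ± 0.20 (SE, adjusted p = 0.402), and without replicate 2 of 14 d light it was 0.67 ± 0.16 (SE, adjusted p = 0.0345). A second model paired with the same locus, Aa31sc733G20, was at 27.3, 31.8 and 25.5 CPM after 1 d and 38.6, 40.4 and 46.9 after 7 d. Its first-week log2 fold change was 0.56 ± 0.18 (SE, adjusted p = 0.0169), a call that ended without replicate 1 or 3 of 1 d or replicate 3 of 7 d light (adjusted p up to 0.0859), and the dark week against 14 d of light gave -0.18 ± 0.20 (SE, adjusted p = 0.613).

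ER and Golgi membrane ligases were higher after 7 d of light in 3 of 5 models, and none of the 5 was lower. Among all genes 30.7% were higher and 29.7% lower, and among the tested members 49.7% and 19.8%. DOA10/CER9 (Aa31LG2G16510) was at 379, 364 and 385 CPM after 1 d and 612, 596 and 540.1 after 7 d, with groups well apart and a log2 fold change of 0.63 ± 0.11 (SE, adjusted p = 0.000256). HRD1A and HRD1B remove misfolded proteins from the ER: HRD1B (Aa31LG2G2240) had a log2 fold change of 0.55 ± 0.13 (SE, adjusted p = 0.00277) and HRD1A (Aa31LG8G3240) one of 0.09 ± 0.13 (SE, adjusted p = 0.567). FLYING SAUCER1 (FLY1), which governs pectin methylesterification in the seed coat mucilage of Arabidopsis, rose in the first week and was higher again after darkness. Its model (Aa31LG2G22230) was at 137, 137 and 136 CPM after 1 d, 215, 229.9 and 217 after 7 d, 235, 227 and 218 after 14 d and 286, 283 and 296 after the dark week. The dark libraries were above all 9 others, and the log2 fold changes were 0.69 ± 0.09 (SE, adjusted p = 2.33e-05) in the first week and 0.39 ± 0.09 (SE, adjusted p = 0.00947) for the dark week against 7 d of light. Against 14 d of light the value was 0.35 ± 0.09 (SE, adjusted p = 0.0209). That last call was kept in 12 of 19 other settings. It ended with only the 6 libraries compared (adjusted p = 0.148), with a gene length trend removed (0.0856) and with a replicate block (0.0584). It also ended without replicate 3 of 14 d light (adjusted p = 0.086) and without replicates 1 or 3 of the dark week (0.0631 and 0.0763). FLY2 (Aa31LG8G17560), its closest relative, was at 48.4 ± 4.08 CPM after 1 d and 50.9 ± 9.93 after 7 d and passed no test.

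All 3 members on the list for growth were called in the first week, in both directions, where 60.4% of all genes and 69.5% of tested members were called. SGR9 (Aa31LG1G22140), an amyloplast ligase of gravity sensing, was at 22.6, 21.2 and 19.8 CPM after 1 d and 79.8, 83.5 and 129.9 after 7 d, a log2 fold change of 2.19 ± 0.20 (SE, adjusted p = 1.68e-06). DA2 (Aa31LG4G2540), which limits seed and organ size, was at 95.7, 105 and 103 CPM and then at 213, 215 and 222, a log2 fold change of 1.10 ± 0.10 (SE, adjusted p = 1.6e-06). After the dark week DA2 was at 299, 278 and 274 CPM, above every 7 d library, with 0.39 ± 0.10 (SE, adjusted p = 0.0168). This ended without replicate 1 or 2 of 7 d light (adjusted p = 0.0597 and 0.0566) or replicate 1 of the dark week (0.075). BIG BROTHER (BB, Aa31LG10G17410), another limiter of organ size, was at 58.1, 61 and 59.8 CPM after 1 d and 30.1, 33.4 and 14.6 after 7 d, a log2 fold change of -1.14 ± 0.28 (SE, adjusted p = 0.00321).

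Of the loci listed for light and flowering, 4 are paired in the file and only 1 is a member, RFI2 (Aa31LG1G29020), a RING protein of red light signalling. It was at 65.9 ± 1.72 CPM after 1 d and 82.1 ± 4.63 after 7 d, a log2 fold change of 0.32 ± 0.10 (SE, adjusted p = 0.0112) that no longer passed without replicate 1, 2 or 3 of 1 d (adjusted p = 0.0838, 0.0594 and 0.0545). With darkness in place of light in the second week its log2 fold change was -0.05 ± 0.10 (SE, adjusted p = 0.9). ARI1 (Aa31LG2G16280), of the ARIADNE class that carries ubiquitin on a cysteine before passing it on, fell from 41.1 ± 1.5 CPM to 28.1 ± 4.02, a log2 fold change of -0.53 ± 0.13 (SE, adjusted p = 0.00357).

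Of 5 models on the list for defence and stress, 2 were higher and 1 lower after 7 d of light. The shares were 30.7% higher and 29.7% lower over all genes, and 49.7% and 19.8% over the tested members. ATL6 (Aa31LG5G15570), of the carbon and nitrogen response and of defence, had a log2 fold change of 0.67 ± 0.15 (SE, adjusted p = 0.00225). ATL55 (Aa31LG3G16800), a RING-H2 protein linked to programmed cell death, was at 2.51, 1.09 and 2.51 CPM after 1 d, 8.09, 10.1 and 5.07 after 7 d, 0, 5.72 and 6.72 after 14 d and 2.7, 0.81 and 2.77 after the dark week. The 7 d libraries were above those of 1 d and of the dark week and overlapped with those of 14 d, with log2 fold changes of 1.93 ± 0.44 (SE, adjusted p = 0.0021) in the first week and -1.84 ± 0.57 (SE, adjusted p = 0.0394) for the dark week against 7 d of light. The second call ended when any 1 of the 6 libraries compared except replicate 3 of 7 d light was left out, and also without replicate 1 or 3 of 1 d, with adjusted p up to 0.127. ATL80, a regulator of phosphate and cold responses, has 2 models. Aa31LG4G6490 fell from 8.27, 7.08 and 7.07 CPM to 3.31, 2.64 and 1.9 in the first week, a log2 fold change of -1.43 ± 0.30 (SE, adjusted p = 0.00118). This model, the 1 lower call of the list, had 90 of its 137 counts after 1 d. It reached 50 counts only through those libraries, so the lower level was partly built into its selection and is a description. Aa31LG7G4980 was at 11.8, 16.3 and 12 CPM after 7 d, 10.6, 11 and 13.4 after 14 d and 7.41, 3.25 and 3.87 after the dark week. Its dark libraries were below all 9 others: the log2 fold change was -1.45 ± 0.29 (SE, adjusted p = 0.00445) against 7 d of light, kept under all 19 other settings, and -1.25 ± 0.32 (SE, adjusted p = 0.0192) against 14 d of light. Without replicate 3 of 14 d light, or replicate 2 or 3 of the dark week, the latter had adjusted p of 0.0648, 0.0633 and 0.0941. ATL78 (Aa31LG8G5600), of drought and cold responses, passed no test, with -0.37 ± 0.21 (SE, adjusted p = 0.142) in the first week.

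By domain the groups are small, and their first-week counts stand beside 30.7% of all genes called higher and 29.7% lower. Of all tested members, 49.7% were higher and 19.8% lower. The 4 models of the SINA type, RING proteins with a TRAF-like substrate-binding domain, were called in the first week 3 times higher and 1 time lower. AT4G27880 (Aa31LG3G9520), AT5G37930 (Aa31LG9G17300) and AT3G61790 (Aa31LG10G15780) had log2 fold changes of 0.79, 0.55 and 0.46, and AT2G41980 (Aa31LG1G24150) one of -0.70 ± 0.16 (SE, adjusted p = 0.00187). Of 8 RING-CH models 4 were higher and 1 lower, and of 5 tested U-box models 3 were higher and 2 lower. One of the higher U-box calls, AT1G01660 (Aa31LG1G11020) at 0.26 ± 0.10 (SE, adjusted p = 0.044), ended in 16 of 19 other settings, among them those without any 1 library of 1 d or 7 d light, with adjusted p up to 0.312. The C6HC zinc finger, which marks ligases with RING fingers in pairs, occurred in 8 tested models, of which 2 were higher and 3 lower. Of the lower ones, AT4G19670 (Aa31LG6G2220) at -0.61 ± 0.19 (SE, adjusted p = 0.0127) lost its call without replicate 2 of 7 d light (adjusted p = 0.0666), and that of a copy of AT3G45580 (Aa31LG4G14770) is described with the gene copies. Both helicases were higher. Of 3 tested models with a protease-associated domain, 1 was higher and none lower. By title alone, 169 models are described as RING/U-box superfamily protein, of which 76 were higher and 31 lower among 158 tested. This title overlaps with the domain groups: it holds the RING-CH models and part of the C6HC and U-box models.

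In the second week of light, 14 d against 7 d, 0 of 177 tested members were called by edgeR, where 0.307% of all genes were. DESeq2 called 0 members too, and 25 members by edgeR and 15 by DESeq2 had an unadjusted p under 0.05. By edgeR 1813 of all 15301 genes had such a p, and for DESeq2 the number over all genes was not taken. Log2 fold changes ran from -1.45 to 1.36 with a median of 0.00. This count rests on 1 library: without replicate 2 of 14 d light, which lay near the 7 d libraries, 4 members were higher and 8 lower, and 10.9% of all genes were then called. Besides XERICO, those higher were AT2G44410 (Aa31LG1G25960) at 0.53 ± 0.14 (SE, adjusted p = 0.0378), AT1G74370 (Aa31LG4G4620) at 0.52 ± 0.14 (0.0395) and AT4G13100 (Aa31LG9G4870) at 0.79 ± 0.21 (0.0376). The 8 lower ones ran from -2.37 for AT3G53690 (Aa31LG5G9420) to -0.43 for AT5G42940 (Aa31LG9G13070).

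Darkness in place of light during the second week compares seeds of equal age. Against 14 d of light, 19 of 177 tested members were higher after the dark week and 7 were lower, 10.7% and 3.95%. Over all genes 6.05% were higher and 7.03% lower, 13.1% in all. The median log2 fold change was 0.08 in the tested members and -0.03 in all genes. At least 2-fold changes were called higher in 3 members and lower in 3, where 1.17% and 3.33% of all genes passed. Of the 26 calls, 6 were kept under all 19 other settings, and 10 calls were made when only the 6 libraries compared were fitted. Leaving out 1 library gave 13 calls without replicate 3 of 14 d light and 17, 16 and 13 without replicates 1, 2 and 3 of the dark week. Without replicate 1 of the dark week the split was 9 higher and 8 lower, so the balance of calls depended on that library. Of the member calls 52.9% were then higher, against 45.3% of the calls over all genes. The medians were then 0.09 in the tested members and -0.02 in all genes. The same dark libraries stand in the comparison with 7 d of light, so the values of the 2 comparisons are given side by side and are not independent.

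Against 7 d of light, 19 members were higher and 11 lower after the dark week, but scaling by library totals alone turned this split to 14 higher and 18 lower and the member median from 0.05 to -0.01. Among all genes 8.42% were higher and 9.99% lower, 18.4% in all, and with library totals 6.33% and 12.0%. Changes of at least 2-fold were called higher in 4 members and lower in 6, against 1.52% and 4.46% of all genes. Of these 30 calls, 12 were kept under all 19 other settings. The count was 18, 16 and 41 without replicates 1, 2 and 3 of 7 d light. It was 15, 16 and 18 without replicates 1, 2 and 3 of the dark week, and 40 without replicate 3 of both 7 d and 14 d light. It was 45 without replicate 2 of 14 d light, a library outside the comparison that enters the estimate of spread.

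Both models of AT4G35840 were higher after darkness. It is a RING gene whose best Arabidopsis match in the file's annotation is NEP-interacting protein 2. Aa31LG8G15010 was at 143, 147 and 135 CPM after 1 d, 172, 171 and 200.3 after 7 d, 210.2, 147 and 158 after 14 d and 367, 393 and 353 after the dark week. All dark libraries were above the 9 others, and the log2 fold change was 1.12 ± 0.13 (SE, adjusted p = 0.000155) against 14 d and 1.04 ± 0.13 (SE, adjusted p = 0.000219) against 7 d of light. The other model, Aa31LG6G12790, was at 23.6, 19.1 and 25.5, then 37.9, 39.1 and 49.4, then 57.9, 56.4 and 61.3 CPM in light and at 98.4, 103 and 87.9 after darkness. Here too the dark libraries lay above the rest, with 0.72 ± 0.14 (SE, adjusted p = 0.00409) against 14 d and 1.21 ± 0.14 (SE, adjusted p = 9.44e-05) against 7 d. For the pair these 4 calls were kept under all 19 other settings.

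AT2G39100 (Aa31LG5G20500), a RING protein for which the file gives no role, was at 50.7, 39.6 and 50.7 CPM after 7 d, 42.5, 43.3 and 50.1 after 14 d and 97.7, 97.4 and 97.9 after the dark week. The dark libraries differed by less than 1 CPM and were well above the light libraries: 1.11 ± 0.13 (SE, adjusted p = 0.000168) against 14 d and 1.06 ± 0.13 (SE, adjusted p = 0.000142) against 7 d. AT3G61180 (Aa31LG10G15260), annotated at the plasma membrane, was at 50.4, 54.1 and 50.7 CPM after 7 d, 40.1, 39.6 and 47.8 after 14 d and 81.5, 80.4 and 84.6 after the dark week. No light library reached the dark ones, and the log2 fold changes were 0.95 ± 0.11 (SE, adjusted p = 0.000142) against 14 d and 0.67 ± 0.10 (SE, adjusted p = 0.000981) against 7 d. AT5G60820 (Aa31LG11G2460) was at 30.5, 20.7 and 33.6 CPM after 7 d and 56.6, 65 and 49.8 after the dark week, which gave 1.02 ± 0.20 (SE, adjusted p = 0.00421). Against 14 d of light it was 0.75 ± 0.21 (SE, adjusted p = 0.0307), and leaving out replicate 2 or 3 of 14 d light or replicate 1 or 2 of the dark week ended that call (adjusted p up to 0.0972).

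**Figure D4:**
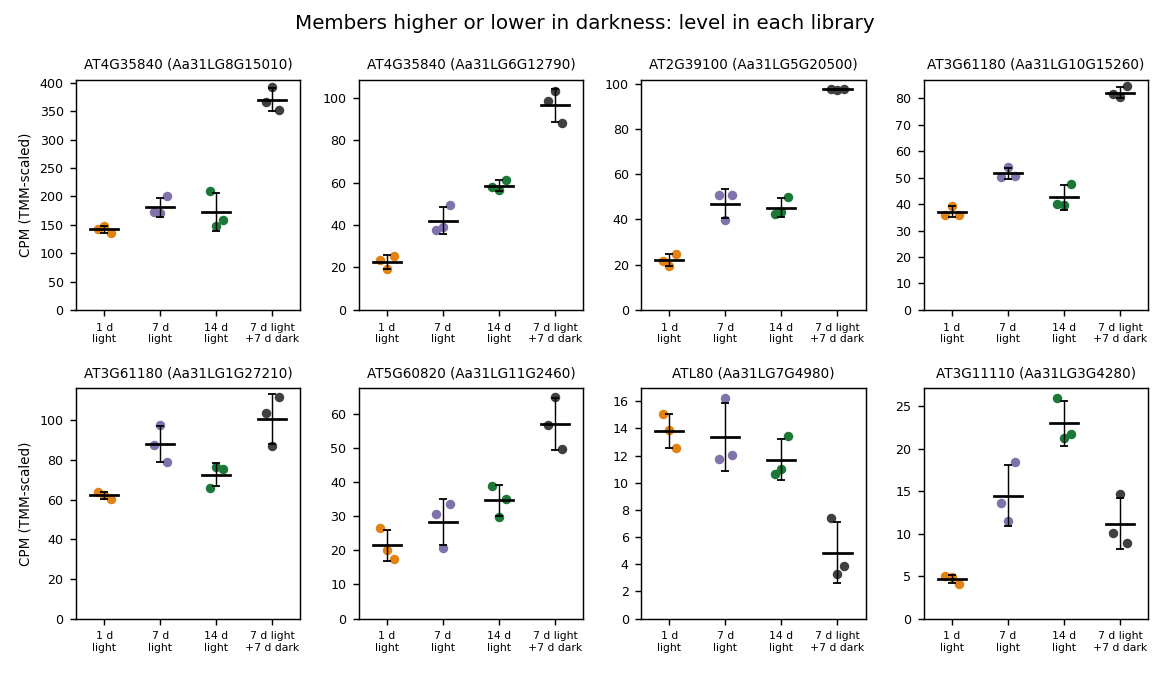
Level in CPM (y axis, from 0) of 8 members called between darkness and light, in each library of 4 conditions (x axis); points are libraries, the bar is the mean of 3 and the whiskers are 1 SD. Aa31LG8G15010 averages 371 CPM after the dark week and 172 after 14 d of light, and ATL80 on Aa31LG7G4980 averages 4.84 and 11.7 CPM.

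Further members were higher after darkness with smaller changes that were kept under all 19 other settings. Against 14 d of light this was AT1G53190 (Aa31LG10G1940) at 0.50 ± 0.11 (SE, adjusted p = 0.0116). Against 7 d of light they were the U-box protein with armadillo repeats AT5G62560 (Aa31LG11G1080) at 0.64 ± 0.14 (SE, adjusted p = 0.00739), AT1G49200 (Aa31LG10G4700) at 0.68 ± 0.14 (SE, adjusted p = 0.00485), AT1G24440 (Aa31LG7G9590) at 0.66 ± 0.15 (SE, adjusted p = 0.00943) and AT5G55970 (Aa31LG3G11880) at 0.58 ± 0.10 (SE, adjusted p = 0.00182). AT5G42940 (Aa31LG9G13070) was lower, with 158, 146 and 136 CPM after 7 d and 105, 94.2 and 107 after the dark week and a log2 fold change of -0.52 ± 0.11 (SE, adjusted p = 0.00583).

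Several calls of darkness against 14 d of light ended when 1 library was left out, with changes somewhat smaller and in the same direction. AT4G30400 (Aa31LG2G20130), annotated with the response to karrikin, a germination stimulant from smoke, was at 2.36, 5.31 and 5.23 CPM after 14 d and 13.5, 9.74 and 10.5 after the dark week. The groups did not overlap and the log2 fold change was 1.25 ± 0.30 (SE, adjusted p = 0.0168), but 1.10 with an adjusted p of 0.0705 without replicate 1 of the dark week. AT2G41980 (Aa31LG1G24150), of the SINA type, was at 7.08, 12.7 and 15.7 CPM after 14 d and 22.9, 28.4 and 21 after the dark week. Its log2 fold change was 0.93 ± 0.22 (SE, adjusted p = 0.0148), and 0.81 with an adjusted p of 0.0521 without replicate 2 of the dark week. AT3G11110 (Aa31LG3G4280) was at 26, 21.2 and 21.7 CPM after 14 d of light and 10.1, 14.6 and 8.85 after the dark week, -1.04 ± 0.23 (SE, adjusted p = 0.0108). Without replicate 3 of the dark week it was -0.88 (adjusted p = 0.063), and against 7 d of light this model was not called. AT1G71980 (Aa31LG4G8630) was at 236, 239.8 and 237 CPM after 14 d and 181, 159 and 179 after the dark week, -0.46 ± 0.11 (SE, adjusted p = 0.013), and without replicate 2 of the dark week it was -0.40 (adjusted p = 0.0537).

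Other members with large changes lost their calls when 1 of several libraries was left out. Against 14 d of light they were AT5G56340 (Aa31LG3G12230) at 0.82 and AT5G17600 (Aa31LG11G12050) at 0.72, both higher, with AT1G30860 (Aa31LG6G12280) at -0.66 and AT5G18260 (Aa31LG11G11320) at -0.42, both lower. Adjusted p was 0.0207, 0.0278, 0.0271 and 0.0189, and without replicate 3 of the dark week it was 0.0636, 0.124, 0.12 and 0.0634. Replicate 3 of 14 d light had the same effect on all of them but AT1G30860, replicate 1 of the dark week on AT5G56340 and AT5G17600, replicate 2 of the dark week on AT5G17600 and AT5G18260, and replicate 1 of 14 d light on AT1G30860. Against 7 d of light, low values besides those of ATL55 and ATL80 were those of AT3G53690 (Aa31LG5G9420) at -2.01, AT5G45290 (Aa31LG9G7750) at -1.69, AT5G54990 (Aa31LG3G10910) at -1.58, AT2G37580 (Aa31LG5G23040) at -1.19 and AT3G58720 (Aa31LG10G13330) at -0.96. All 5 averaged under 6 CPM after the dark week, and all 5 calls ended without its replicate 3, with adjusted p of 0.0975, 0.134, 0.151, 0.148 and 0.0661. They ended as well without replicate 2 of 7 d light or replicate 2 of the dark week, those of AT3G53690, AT5G45290 and AT3G58720 also without replicate 1 of either condition, and that of AT5G54990 also without replicate 1 of 7 d light. AT1G30860, at -0.54 against 7 d of light (adjusted p = 0.0459), lost this call in 16 of 19 other settings, with adjusted p up to 0.173. AT4G30400 was higher at 0.96 ± 0.27 (SE, adjusted p = 0.0258), and lost this call without replicate 2 of 7 d light or replicate 1 or 3 of the dark week (adjusted p up to 0.112). AT3G05670 (Aa31LG11G2470), higher at 0.72 ± 0.17 (SE, adjusted p = 0.0126), lost its call without replicate 2 of 7 d light (adjusted p = 0.0583).

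Of the 171 loci, 17 had several models, 36 in all, and how the authors' counting divided reads among near-identical copies has no description in the labels or file, so values of such copies are uncertain. In the first week all copies of 5 loci were higher, copies of 6 loci were called in part, those of 2 loci were not called, and 2 loci had a copy too low to test. At the other two loci, copies went opposite ways. The copies of AT5G20885 were Aa31LG1G13880, with 26.6, 22.9 and 23.3 CPM after 1 d and 36.8, 33.4 and 43.1 after 7 d, and Aa31LG4G12920, with 9.27, 8.98 and 8.21 and 3.68, 2.64 and 4.44. Their log2 fold changes were 0.62 ± 0.13 (SE, adjusted p = 0.000885) and -1.32 ± 0.22 (SE, adjusted p = 0.000216). Aa31LG4G12920 had 106 of its 143 counts after 1 d and reached the minimum count of the set only through those libraries. Its lower level after 7 d was thus partly built into its selection, and the opposite directions of these copies are a description. The locus AT3G45580 had 4 copies, of which Aa31LG4G14710 and Aa31LG6G10210 were higher at 0.78 and 0.47, Aa31LG4G14770 was lower at -0.44 and Aa31sc129G30 was not called (adjusted p = 0.998). The lower call of Aa31LG4G14770 ended in 7 of 19 other settings, among them those without any 1 library of 1 d or without replicate 1 or 2 of 7 d light, with adjusted p up to 0.229. Against 14 d of light, both copies of AT4G35840 and of AT3G61180 were higher after the dark week. The second copy of AT3G61180 (Aa31LG1G27210) had 0.47 ± 0.12 (SE, adjusted p = 0.0244), which ended without replicate 3 of 14 d light or replicate 1 or 3 of the dark week (adjusted p up to 0.109).

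Across conditions, 1 d had the lowest mean of the 4 in 105 of the 190 members, 55.3%, where it had the lowest in 39.8% of the 16031 genes with at least 50 counts. The dark week had the highest mean in 71 members, 37.4%, against 26.6% of those genes. For 58 members the highest mean was that of 1 d, 30.5% against 42.4% of those genes. It was that of 7 d for 32 members, 16.8% against 12.9%, and that of 14 d for 29, 15.3% against 18.1%. The 13 members too low to test had totals of 52 to 113 counts, with the highest mean after 1 d in 6, after 7 d in 2, after 14 d in 1 and after the dark week in 4.

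**Figure D5:**
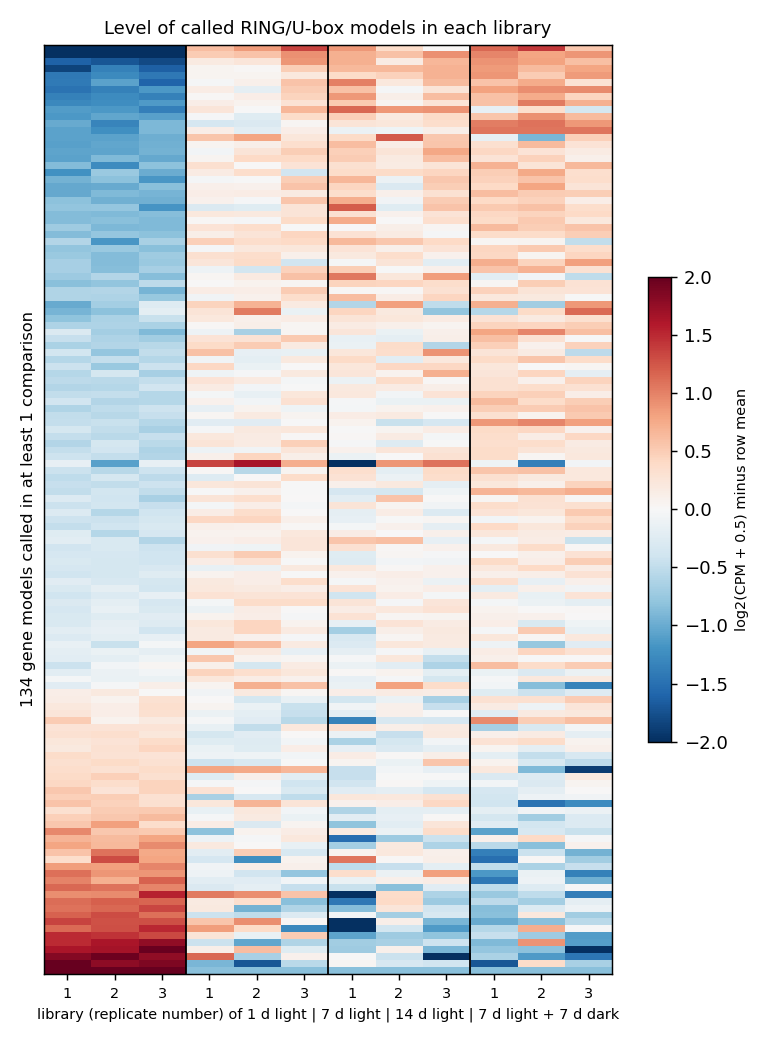
Level of the 134 models called in at least 1 comparison (rows, sorted by the 1 d level relative to the row mean) in the 12 libraries (columns); colour is log2(CPM + 0.5) minus the row mean, cut at 2 in either direction. The 3 columns of 1 d differ from the other 9 over most rows, in both directions, and the change at 1 d in light was part of what selected the rows.

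Enzymes that work with these ligases were followed by lists of known genes, to be read against the 30.7% of all genes called higher and 29.7% called lower, with a median of 0.02, in the first week. Of 26 tested models of E2 conjugating enzymes, 19 were higher and 1 lower after 7 d of light, with a median log2 fold change of 0.62. The single E1 model tested, UBA1, was not called at -0.57 ± 0.26 (SE, adjusted p = 0.0784). Of 7 tested models of the cullin-RING core, scaffolds of ligases built from several subunits, 3 were higher and 0 lower: CUL4 at 0.56 ± 0.11 (SE, adjusted p = 0.000847), ASK2 at 0.85 ± 0.23 (SE, adjusted p = 0.00586) and a model of RBX1 at 0.34 ± 0.11 (SE, adjusted p = 0.0203). Of 7 tested proteasome models 2 were higher and 4 lower, among them the core subunit PBA1 at -1.32 ± 0.16 (SE, adjusted p = 1.82e-05) and the ubiquitin receptor RPN10 at -0.81 ± 0.11 (SE, adjusted p = 4.59e-05). UBQ10, a polyubiquitin gene, was higher at 0.52 ± 0.20 (SE, adjusted p = 0.0353). Between the dark week and 14 d of light 1 E2 model, 3.85% of those tested, was lower and none of the others was called. Over all genes 6.05% were higher and 7.03% lower in that comparison. Between the dark week and 7 d of light 2 E2 models were higher and 2 lower, 7.69% each, against 8.42% and 9.99% of all genes.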

How the data were processed

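Poly(A) RNA of intact seeds was sequenced in 12 libraries, 3 for each of 4 conditions. The tools named in the submitters' processing notes are HTSeq 0.11.2, Bowtie2 2.3.5.1, Trimmomatic and bcl2fastq 2.17.1; no label or header records the strand setting or the treatment of reads that match several copies. The deposited table holds raw read counts per gene model, per the file headers, and RPKM values, which the authors computed and which were not used. The counts were fitted here with edgeR 4.0.16 in R 4.3.3 (TMM scaling, filterByExpr, 1 quasi-likelihood model with 4 condition means, Benjamini-Hochberg adjustment over 15301 genes, calls at 0.05, 2-sided). Printed levels are TMM-scaled CPM, with SD over 3 libraries, and the SE of a log2 fold change is its size over the square root of the F statistic.

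Members named were those of role lists from Arabidopsis knowledge, the 8 highest and 8 lowest called members of each comparison with a mean of at least 2 CPM and groups that do not overlap, and the 10 highest per kilobase; copies of one locus, members whose calls were kept in all settings and those called in the second week of light without 1 library were added after their values were seen. The members and lists were chosen with earlier results of these data known. The fits were tested on simulated data. Alternatives were DESeq2 1.42.0, scaling by library totals, no filter on low counts, a replicate block, removal of a gene length trend, fits of 6 libraries and each library left out; leaving out replicate 3 of 7 d and of 14 d light together was added after seeing the data.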

Additional observations from a re-analysis of the deposited data

How the results depend on the processing

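The count of members called in the first week of light (123) lay between 104 and 127 with 1 library left out and between 107 and 123 under the other settings. In the second week of light it was 0 throughout except without replicate 2 of 14 d light, so that leaving out 1 library gave 0 to 12. For the dark week against 14 d of light (26 calls) the range with 1 library left out was 13 to 27, the 6 libraries alone gave 10 calls, and leaving out replicate 3 of both 7 d and 14 d light gave 17, and the cause was not tested beyond the smaller number of libraries in both fits. Against 7 d of light (30 calls) the range was 15 to 45. Libraries of the same replicate number were not more alike than others: 4 of 18 same-numbered pairs had deviations correlated above 0.1, against 14 of 36 pairs with different numbers. These deviations are taken from the mean of each condition's 3 libraries, and they cannot tell whether the numbers mark shared batches. With the replicate number as a block the calls were 112, 0, 20 and 19 in the 4 comparisons in the order above. Counting each called member once for each comparison and other setting, the call was kept in 2942 cases, was lost in 459 and changed direction in 0. Depth limits the 13 untested members and those below about 2 CPM most, since 1 count was worth up to 1.18 CPM.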
